A study of Homo sapiens with 10 samples.

Results

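The genes described here encode glycoproteins and proteoglycans that cells secrete into the extracellular matrix. They are FN1, THBS1, EFEMP1, SPARC and SRGN, which were selected on the size of their log2 differences, in opposite directions, in these same libraries, and the relatives EFEMP2, FBLN1, FBN1, FBN2 and TNC. Of the 10 named genes, 8 were found by gene symbol among the 27884 genes of the files. FBN2 and TNC were not analysed here.

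RNA was sequenced from PANC-1, an established line from a human pancreatic ductal adenocarcinoma, in 5 libraries of shPAR1 cells and 5 of shCtrl cells. In shPAR1 cells a lentivirus delivered a short hairpin RNA against F2R, the gene of the thrombin receptor PAR1, and in shCtrl cells a control hairpin. Both were grown in DMEM with fetal calf serum and selected with puromycin at 2 µg/ml, and each group rests on 1 hairpin clone in 1 cell line. The labels do not say whether a group's libraries are separate cultures, so the standard errors and p-values measure only the spread between these samples. The comparison asks what differs in the matrix genes when PAR1 is silenced.

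Fibronectin, the product of FN1, forms fibrils that cells bind through integrins, and thrombospondin 1, the product of THBS1, is a matricellular protein that binds cell surface receptors and activates latent TGF-beta. The fibulins, which include the products of EFEMP1, EFEMP2 and FBLN1, bridge other matrix proteins, and EFEMP2 and fibrillin-1, the product of FBN1, take part in building elastic fibres and microfibrils. SPARC is a collagen-binding matricellular protein, and SRGN encodes serglycin, the core protein of a proteoglycan of secretory granules.

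The libraries held 15335264 to 25369056 counts each. Values are log2 of the normalized count plus 1, as deposited, where a normalized count is a gene's read count divided by a size factor of its library. Differences are shPAR1 minus shCtrl on this scale, where the added 1 shrinks the differences of genes with few reads. The silenced gene F2R was at 10.23 ± 0.053 (SD, n = 5) in shPAR1 cells against 11.79 ± 0.036 (SD, n = 5) in shCtrl cells, which is 66.0% lower in normalized counts. Mitochondrial transcripts made up 7.37% to 9.08% of counts in the shPAR1 libraries and 5.71% to 7.07% in the shCtrl libraries. With size factors computed without mitochondrial genes, the differences were 3.07 for FN1, 2.67 for SRGN, 1.69 for SPARC, -1.29 for THBS1 and -3.65 for EFEMP1. Any other part of these transcripts in the results was not tested. In bulk RNA, fewer cells that express a gene and less RNA per cell cannot be told apart.

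Promoter sequences are shown for FN1 and THBS1, the adhesive glycoprotein genes that differed in opposite directions, so that their layouts can be compared. They end at the base before the GENCODE gene start, are written 5′ to 3′ on the strand of the gene, and come from RefSeq (GRCh38.p14), whose promoter table held 6 of the 8 genes. The FN1 stretch is chr2:215436074-215436318 on the minus strand and the THBS1 stretch is chr15:39580829-39581078 on the plus strand. Capitals mark the motifs found on either strand: the TATA box TATAA, the CCAAT box, the GC box GGGCGG, the cyclic AMP response element TGACGTCA and the TEAD motif GGAATG. Where a motif lies on the other strand, its reverse complement is in capitals.
FN1: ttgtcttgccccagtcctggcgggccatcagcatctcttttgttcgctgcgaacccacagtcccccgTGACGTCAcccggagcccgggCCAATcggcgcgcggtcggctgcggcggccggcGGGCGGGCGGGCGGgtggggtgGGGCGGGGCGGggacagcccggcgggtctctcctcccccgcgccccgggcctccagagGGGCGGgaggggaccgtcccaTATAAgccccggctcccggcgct
THBS1: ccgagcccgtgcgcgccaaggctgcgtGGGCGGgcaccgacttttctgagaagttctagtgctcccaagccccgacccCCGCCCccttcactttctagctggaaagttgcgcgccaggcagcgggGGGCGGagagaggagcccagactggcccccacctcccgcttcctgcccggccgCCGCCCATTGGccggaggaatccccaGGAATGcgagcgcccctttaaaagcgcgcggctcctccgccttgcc

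Motifs were searched in the 250 bases before the RefSeq gene start, and positions count from it. For FN1 that start lies 5 bases inside the GENCODE gene, and those 5 bases are not printed. FN1 held 1 TATAA, 28 bases before the RefSeq start, 1 CCAAT, 6 GC boxes, some of them overlapping, and 1 TGACGTCA. THBS1 held 1 CCAAT, 4 GC boxes and 1 GGAATG, 46 bases before its start, and no TATAA or TGACGTCA in this window. Both genes thus held CCAAT and the GC box, which were present in 32.0% and 42.6% of 35116 promoters of the same length. TGACGTCA was in 1.65% of those promoters, TATAA in 18.9% and GGAATG in 11.9%. Of the other members in the table, EFEMP2 held 5 GC boxes and FBLN1 1, while SPARC and FBN1 held 1 GGAATG each. The AP-1 motif (TGACTCA or TGAGTCA, in 4.20% of promoters) and the E-box CACGTG (in 6.34%) were found in none of the 6. Only these exact letters were searched, so variants of a motif, such as the tttaaaa in the THBS1 stretch, were not counted. A match is a description of letters and not evidence of binding, and a missing match does not show that an element is absent.

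FN1, SRGN and SPARC were higher in shPAR1 cells, and EFEMP1 and THBS1 were lower. All 5 were picked for these differences, so their values are a description and no test is given. Each differed by more than 1 on the log2 scale, as did 3.42% of all genes tested, which the choice fixed.

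FN1 is on chromosome 2, minus strand, from 215360440 to 215436073. Its values were 9.23, 9.40, 9.42, 9.45 and 9.25 in shPAR1 replicates 1 to 5 and 6.48, 6.42, 6.01, 6.28 and 6.24 in shCtrl replicates 6 to 10. Every shPAR1 library lay above every shCtrl library, with a gap of 2.76 between the nearest. The difference was 3.07 (standard error 0.088). In normalized counts FN1 was 653 ± 46.5 (SD, n = 5) in shPAR1 cells against 77.5 ± 9.52 (SD, n = 5) in shCtrl cells, an 8.43-fold ratio, and single shPAR1 libraries lay 7.74 to 9.03-fold above the shCtrl mean. These values rest on 482 to 787 reads in a shPAR1 library and 59 to 97 in a shCtrl library.

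SRGN (chromosome 10, plus strand, 69088103 to 69104805) had the widest spread of the picked genes in shCtrl cells. It was 7.08, 7.35, 7.30, 7.29 and 7.59 in shPAR1 replicates 1 to 5 and 5.15, 4.85, 3.68, 4.71 and 4.87 in shCtrl replicates 6 to 10. The groups were separate by 1.93, and shCtrl replicate 8, which held 11 SRGN reads, lay below the other 4 shCtrl libraries. The difference was 2.67 (standard error 0.21), or 6.28-fold in normalized counts, with single shPAR1 libraries 5.26 to 7.52-fold above the shCtrl mean. In normalized counts its coefficient of variation was 32.8% in shCtrl cells, where counting error alone gives 18.8%.

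SPARC (chromosome 5, minus strand, 151661096 to 151686975) was the most even of the 3 higher genes. Its values were 9.95, 10.02, 9.99, 9.95 and 9.99 in shPAR1 replicates 1 to 5 and 8.07, 8.33, 8.41, 8.31 and 8.34 in shCtrl replicates 6 to 10. The shPAR1 libraries lay close together, with a coefficient of variation of 2.18% where counting error alone gives 3.22%, and shCtrl replicate 6 was the lowest of its group. The difference was 1.69 (standard error 0.061), a 3.22-fold ratio of normalized counts (1010 against 313).

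EFEMP1 encodes fibulin-3 and is on chromosome 2, minus strand, from 55865967 to 55924139. It was 4.39, 4.91, 4.98, 4.62 and 4.99 in shPAR1 replicates 1 to 5 and 8.38, 8.34, 8.58, 8.45 and 8.38 in shCtrl replicates 6 to 10. The groups were separate by 3.35, the widest gap among the members. The difference was -3.65 (standard error 0.12), the sixth most negative of the 17518 genes tested, and the normalized count was 92.2% lower in shPAR1 cells (26.8 against 344). Only 16 to 34 reads were counted in a shPAR1 library, against 345 to 424 in a shCtrl library, and the shPAR1 coefficient of variation of 18.1% was about that of counting error (19.7%).

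THBS1 (chromosome 15, plus strand, 39581079 to 39599466) differed least of the picked genes. Its values were 8.79, 8.82, 9.04, 9.01 and 8.97 in shPAR1 replicates 1 to 5 and 10.26, 10.29, 10.19, 10.13 and 10.23 in shCtrl replicates 6 to 10. No shPAR1 library reached a shCtrl library, and the nearest lay 1.09 apart. The difference was -1.29 (standard error 0.057), which is 59.2% lower in normalized counts (487 against 1192). FSIP1, a gene on the opposite strand whose annotated span overlaps THBS1, had 30 to 53 reads in a library. No source used here gives the strand setting of the counting step, so reads from the overlap cannot be told apart.

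The 3 relatives with values were not picked for their own change, and their groups overlapped in each case. FBLN1 encodes fibulin-1 and is on chromosome 22, plus strand, from 45502238 to 45601135. It was 11.08, 11.23, 11.20, 11.22 and 10.98 in shPAR1 replicates 1 to 5 and 10.86, 10.95, 11.08, 11.02 and 10.95 in shCtrl replicates 6 to 10. Only replicates 2, 3 and 4 of shPAR1 lay above all shCtrl libraries. FBLN1 rose by 0.17 (standard error 0.054, 95% interval 0.052 to 0.28, adjusted p = 0.0205 from limma with Benjamini-Hochberg adjustment), which is 12.3% in normalized counts. The adjusted p lay between 0.00229 and 0.0616 when single libraries were left out, and the call was lost without replicates 3, 4 or 6.

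EFEMP2 encodes fibulin-4 and is on chromosome 11, minus strand, from 65866441 to 65873592. Its values were 8.91, 9.10, 8.99, 9.05 and 8.83 in shPAR1 replicates 1 to 5 and 8.99, 9.12, 9.16, 9.09 and 9.08 in shCtrl replicates 6 to 10. The groups overlapped, with replicate 5 of shPAR1 the lowest. The difference was -0.11 (standard error 0.060, 95% interval -0.24 to 0.016, adjusted p = 0.157 from limma). MUS81 overlaps EFEMP2 on the opposite strand and had the larger normalized counts, 1631 in shPAR1 and 1733 in shCtrl cells, so EFEMP2 is uncertain to the extent that reads were shared.

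FBN1 (chromosome 15, minus strand, 48408313 to 48645721) was near the lower end of the members. It was 6.54, 6.30, 6.31, 6.26 and 6.01 in shPAR1 replicates 1 to 5 and 6.53, 6.36, 6.55, 6.42 and 6.16 in shCtrl replicates 6 to 10. The libraries of both groups intermingled. The difference was -0.12 (standard error 0.12, 95% interval -0.37 to 0.13, adjusted p = 0.452 from limma). Of the 3 relatives 1 was called at an adjusted p under 0.05, where 40.9% of all 17518 genes tested were. None of the 3 had groups that did not overlap, against 29.2% of all genes tested.

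**Figure D1:**
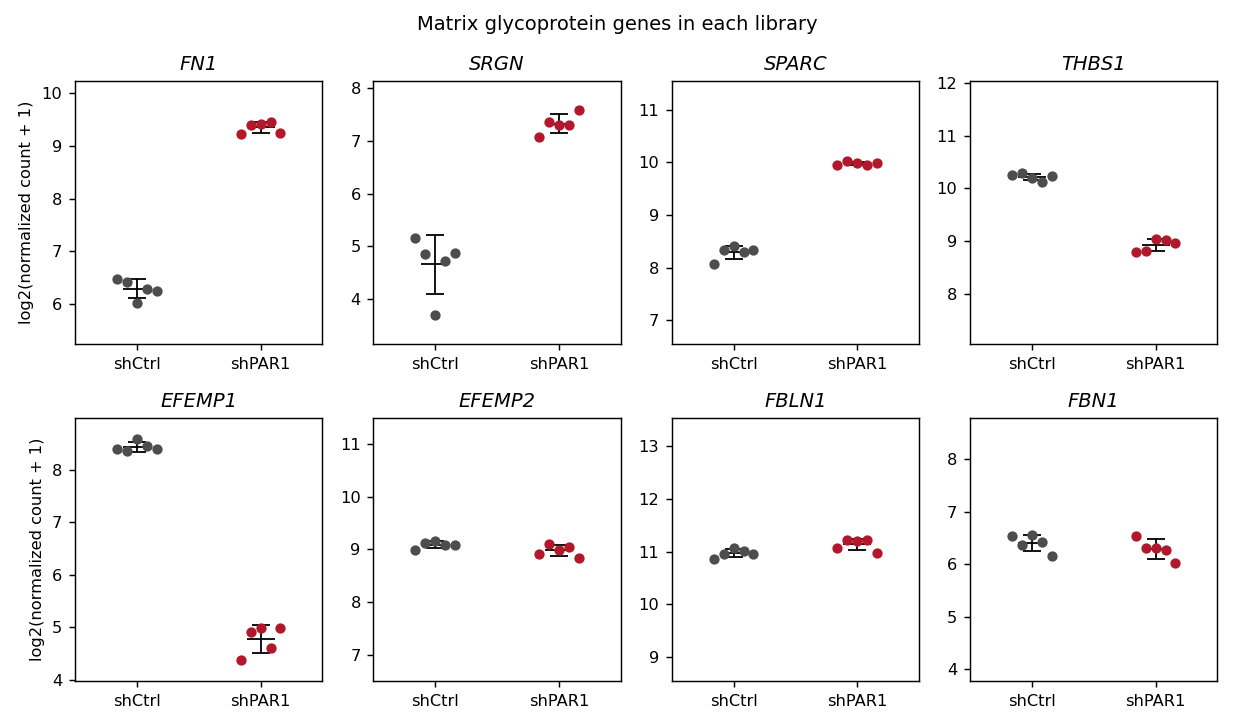
Log2(normalized count + 1) of each of the 8 genes in the 5 shCtrl and 5 shPAR1 libraries, 1 point per library, with the mean and SD as bars and a vertical axis of its own for each gene. FN1, SRGN and SPARC lie higher and THBS1 and EFEMP1 lower in all shPAR1 libraries, while the groups overlap for EFEMP2, FBLN1 and FBN1.

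Some libraries were at the edge of their group for several members. Replicate 1 of shPAR1, the shallowest library, was the lowest of its group in FN1, THBS1, EFEMP1, SPARC and SRGN and the highest in FBN1. Replicate 8 of shCtrl was the lowest of its group in FN1 and SRGN and the highest in EFEMP1, EFEMP2, SPARC, FBLN1 and FBN1. Over all settings tried, including leaving out each of the 10 libraries in turn, the differences were 2.998 to 3.113 for FN1, 2.43 to 2.79 for SRGN, 1.64 to 1.73 for SPARC, -1.32 to -1.25 for THBS1 and -3.70 to -3.47 for EFEMP1.

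Levels were compared between genes per kb of the Ensembl canonical transcript. In shCtrl cells the order of normalized counts per kb was FBLN1 at 693, EFEMP2 at 281, THBS1 at 153, EFEMP1 at 127, SPARC at 90.7, SRGN at 21.0, FN1 at 9.23 and FBN1 at 7.25. In shPAR1 cells it was FBLN1 at 778, SPARC at 293, EFEMP2 at 261, SRGN at 132, FN1 at 77.9, THBS1 at 62.5, EFEMP1 at 9.89 and FBN1 at 6.68. FBLN1 was thus the first and FBN1 the last of the members in both groups. Over single libraries the ranges of SRGN and FN1, and of FN1 and FBN1, overlapped in shCtrl cells, and those of EFEMP1 and FBN1 overlapped in shPAR1 cells. With merged exons in place of the canonical transcript, EFEMP2 changed places with SRGN and FN1 with THBS1 in shPAR1 cells, and EFEMP2 with THBS1 and FN1 with FBN1 in shCtrl cells.

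Among 73 genes of secreted matrix glycoproteins and proteoglycans, ranked by counts per kb, FN1 stood at 36 in shCtrl and 22 in shPAR1 cells. SPARC stood at 22 and 11, and SRGN at 30 and 18. THBS1 went the other way, at 15 in shCtrl and 23 in shPAR1 cells, and EFEMP1 stood at 17 and 36. The relatives moved by at most 2 places. CCN1, which encodes a matricellular protein, held the first place in both groups.

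The genes whose profile over the 10 libraries was most like that of a picked gene were found among 11319 genes with a mean normalized count of at least 100, by the root mean square distance of the centred log2 values. This is a description in which the shared groups set most of the likeness. ETV1, which encodes an ETS transcription factor, and SPOCK1, which encodes the SPARC family proteoglycan testican-1, were nearest to FN1 (distances 0.198 and 0.219) and also to SRGN (0.256 and 0.318). EPS8, which encodes an actin regulator, and CAMK1D, which encodes a kinase, were nearest to THBS1 (0.0721 and 0.0791). COL5A2, a chain of type V collagen, and LINC00261, a long noncoding RNA, were nearest to SPARC (0.0785 and 0.0874). CRACDL and SLC8A1, the gene of a sodium-calcium exchanger, were nearest to EFEMP1 (0.198 and 0.446). ETV1 and SPOCK1 reached a mean count of 100 through shPAR1 cells (log2 means 7.52 and 7.65, against 4.64 and 4.83 in shCtrl cells). CRACDL and SLC8A1 reached it through shCtrl cells (7.72 and 7.78, against 3.79 and 4.92 in shPAR1 cells). For these 4 genes the filter itself thus favoured a large group difference.

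Other matrix genes were taken from 12 lists. Some hold the members' families, and others hold cell surface proteoglycans, receptors, and enzymes of chain synthesis or crosslinking. Without the members, 95 genes of these lists were tested, of which 33 rose, 20 fell and 42 did not pass the test, against 19.0% of all genes tested that rose and 21.9% that fell. Their median difference was 0.14, beside -0.0046 for all genes tested. The 7 lists of secreted glycoproteins held 38 of these genes, of which 11 rose, 8 fell and 19 did not pass, with a median of 0.064. In these 7 lists 50% of genes were called, against 40.9% of all genes tested. The list of chondroitin sulfate chain enzymes alone gave 11 of the 33 rises.

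Of the 3 other fibulin genes tested, FBLN2 and FBLN5 rose and FBLN7 fell, by 0.33 (standard error 0.12, adjusted p = 0.0418 from limma). The FBLN7 call was lost when replicate 4, 5, 6, 7, 8 or 10 was left out (adjusted p-values of up to 0.114), with no filter (0.0641) and with upper-quartile scaling (0.0787). FBLN2 rose by 1.33 (standard error 0.30, adjusted p = 0.00181 from limma) from 48 counts in the 5 shCtrl libraries together. Its groups overlapped, and its difference was 1.02 with a pseudocount of 5. FBLN5, which takes part in elastic fibre assembly, rose by 0.47 (standard error 0.16, adjusted p = 0.0264 from limma). The FBLN5 call was lost when replicate 3, 4, 6, 8 or 10 was left out, with adjusted p-values of up to 0.0827. Among the fibulin genes tested, differences ran from -3.65 for EFEMP1, which was picked for its size, to 1.33 for FBLN2.

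Of 10 fibrillin partners, 2 rose, 1 fell and 7 did not pass the test. LTBP1, which encodes a binding protein of latent TGF-beta, rose by 0.53 (standard error 0.050, adjusted p = 1.44e-07 from limma), and EMILIN1, an elastic fibre glycoprotein gene, differed by 0.33 (standard error 0.22, adjusted p = 0.257 from limma). EMILIN1 passed the test with voom (0.49, adjusted p = 0.0471) and without replicate 1 (0.53, adjusted p = 0.0422). None of the 3 other thrombospondin genes tested passed the test. COMP differed by -0.31 (standard error 0.29, adjusted p = 0.436 from limma), and THBS2 by 0.06 (standard error 0.28), a difference that changed sign when single libraries were left out. TNXB, the tenascin gene tested, differed by 0.24 (standard error 0.18, adjusted p = 0.308 from limma).

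Of the 3 relatives of SPARC, 1 rose and 2 fell. SPOCK1 rose by 2.82 (standard error 0.14, adjusted p = 2.64e-11 from limma), and FSTL1, which encodes follistatin-like 1, fell by 0.71 (standard error 0.039, adjusted p = 1.00e-10 from limma). Among 7 CCN and other matricellular genes 3 rose and 2 fell. CCN3 rose by 1.87 (standard error 0.42, adjusted p = 0.00167 from limma) from 21 counts in the 5 shCtrl libraries together, with overlapping groups and a difference that went from 1.17 with a pseudocount of 5 to 2.37 with voom, while CCN2, the gene of connective tissue growth factor, fell by 1.06 (standard error 0.046, adjusted p = 3.45e-12 from limma). CCN1 did not pass the test, at a difference of 0.02 (adjusted p = 0.65 from limma).

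Of 11 other adhesive glycoprotein genes beside FN1, 3 rose, 2 fell and 6 did not pass the test. NID2, which encodes a basement membrane nidogen, fell by 1.24 (standard error 0.061, adjusted p = 1.95e-11 from limma), and MATN3, a matrilin gene, rose by 0.77 (standard error 0.099, adjusted p = 5.48e-06 from limma). None of these 11 differed by as much as FN1, which was picked for its size. The 12 genes tested for receptors of the matrix glycoproteins held 5 that rose and 1 that fell. LRP1, an endocytic receptor that clears thrombospondin 1, rose by 0.91 (standard error 0.069, adjusted p = 7.46e-09 from limma), and ITGB3, a subunit of the integrin alpha v beta 3, by 0.75 (standard error 0.12, adjusted p = 8.67e-05 from limma).

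SRGN is a core protein that carries glycosaminoglycan chains. Of 7 other secreted and granule proteoglycan genes 2 rose and 2 fell, and HSPG2, which encodes perlecan, rose by 0.78 (standard error 0.076, adjusted p = 1.82e-07 from limma). NCAN, the neurocan gene, differed by 0.64 (standard error 0.34, adjusted p = 0.151 from limma) and passed the test without replicate 2 (0.86, adjusted p = 0.0492). Of 9 cell surface proteoglycan genes 4 rose and 3 fell, among them TGFBR3 (betaglycan), which rose by 0.76 (standard error 0.067, adjusted p = 5.41e-08 from limma), and the glypican gene GPC4, which fell by 1.19 (standard error 0.23, adjusted p = 4.72e-04 from limma). GPC4 had 42 counts over all shPAR1 libraries and 116 over all shCtrl libraries, and its difference was -0.93 with a pseudocount of 5.

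Among 21 genes for the synthesis of chondroitin sulfate chains, 11 rose, 3 fell and 7 did not pass the test. DSEL, which encodes a dermatan sulfate epimerase, rose by 3.47 (standard error 0.30, adjusted p = 5.05e-08 from limma) from 13 counts in the 5 shCtrl libraries together, and its difference went from 2.45 with a pseudocount of 5 to 3.88 with voom. Its log2 values were 4.69 to 5.68 in shPAR1 libraries and at most 2.41 in shCtrl libraries. DSEL thus had enough reads to be tested only through shPAR1 cells, where it was high. CHST15, a sulfotransferase gene, fell by 1.28 (standard error 0.097, adjusted p = 7.50e-09 from limma). Of 8 crosslinking enzyme genes 3 fell and none rose. TGM2, the gene of transglutaminase 2, which crosslinks fibronectin, fell by 0.80 (standard error 0.063, adjusted p = 1.39e-08 from limma), and the lysyl oxidase gene LOXL1 by 0.67 (standard error 0.095, adjusted p = 1.76e-05 from limma).

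Matrix genes are also made by other cell types, so markers were summed for each library. Fibroblast markers had a row for 7 of 10 genes, with summed normalized counts of 6931 to 8138 in shPAR1 and 5958 to 6611 in shCtrl libraries. Without COL3A1, the gene of a type III collagen chain, the sums were 4231 to 5146 in shPAR1 and 5894 to 6533 in shCtrl libraries. These sums came mostly from COL1A1, which fell by 0.43 (standard error 0.060, adjusted p = 1.31e-05 from limma). COL3A1 rose by 5.28 (standard error 0.10, adjusted p = 1.81e-16 from limma), while ACTA2, the smooth muscle actin gene, fell by 0.97 (standard error 0.23, adjusted p = 0.00246 from limma). ACTA2 had 60 counts over all shPAR1 libraries and 142 over all shCtrl libraries, and its difference was -0.80 with a pseudocount of 5. COL1A2, FAP and DPT were not analysed here. Endothelial markers (5 of 8 with a row) summed to 71.8 to 106 in shPAR1 and 130 to 170 in shCtrl libraries, mostly from ERG, and haematopoietic markers (6 of 10) to 33.9 to 47.3 and 23.4 to 47.4. Over the 5 shPAR1 and the 5 shCtrl libraries together, PECAM1 had 14 and 1 counts, VWF 8 and 20, ERG 388 and 742, PTPRC 7 and 7, CD14 76 and 80 and FCER1G 47 and 65. The 8 ductal and epithelial markers summed to 40255 to 46455 in shPAR1 and 58414 to 61637 in shCtrl libraries, mostly from keratin genes. Of the marker genes tested, 3 of 7 fibroblast genes rose and 3 fell, the endothelial gene ERG fell by 0.79, and neither haematopoietic gene passed the test (FCER1G at -0.28 and CD14 at 0.08). Of the 8 epithelial genes 2 rose and 5 fell, among them the E-cadherin gene CDH1, which rose by 1.04, and the keratin gene KRT19, which fell by 0.82. The part of these markers in the results for the matrix genes was not tested.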

How the data were processed

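RNA was sequenced from 5 shPAR1 and 5 shCtrl libraries of PANC-1 cells. Per the submitters' notes, reads were trimmed with Trimmomatic 0.36 after FastQC 0.11.5, aligned to GRCh38 with HISAT2 2.1.0 and counted with HTSeq, and DESeq2 was used. The sources used here give neither the annotation release nor the strand setting. The authors deposited log2 values, made by dividing each count by its library's size factor and adding 1 before the logarithm. Undoing this gave whole counts within 0.00108 for all values. Groups came from the labels, which matched the file headers in 10 of 10 libraries, and no 2 libraries held identical values. Gene coordinates are those of GENCODE 44, whose identifiers matched 27361 of 27884 genes. These genes had at least 10 counts summed over the libraries.

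The 17518 genes that reached a normalized count of 10 in 5 or more libraries were compared by limma 3.58.1 (R 4.3.3), with a trended prior variance and Benjamini-Hochberg adjustment at 0.05, after the step was tested on simulated data. As each group held 5 libraries, a gene could pass this filter through 1 group alone, as DSEL did through shPAR1 cells. Python 3.11.15, numpy 2.4.6 and pandas 2.3.3 made the tables. Depth was 15335264 to 25369056 counts per library, and counting error was taken as Poisson. Alternatives were voom with sample weights on the recovered counts, no filter, a stricter filter of 1 CPM, other scalings, a pseudocount of 5 and leaving out each library. The members, lists and tests were chosen with earlier results of these data known. Genes named are the members, F2R, the 2 most changed tested genes of each list, the 2 nearest in profile to each picked gene, and FSIP1 and MUS81, which overlap a member. Other genes overlapping a member, which had at most 4 counts in a library or no row, were left unnamed. FBLN7, CCN1, COL1A1, COL1A2, FAP, DPT, PECAM1, VWF and PTPRC were named outside this rule, after their values were seen.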

Additional observations from a re-analysis of the deposited data

How the results depend on the processing

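FN1, SRGN, SPARC, THBS1 and EFEMP1 kept the direction of their differences under every alternative run, and no called gene for which they were run changed direction. These 5 were picked for large differences in the same libraries, so their kept direction is a description and not a test. FBLN1 lost its call when replicate 3, 4 or 6 was left out, with differences of 0.138 to 0.206 over the 10 fits that each leave out a replicate. THBS2, which was not called, changed sign with voom (-0.0839) and when replicates were left out (-0.0836 to 0.262), and CD14, a monocyte marker that was not called either, changed sign only when replicates were left out (-0.105 to 0.180). Of 51 values of the 3 relatives, 48 kept their direction and their side of the threshold, as did 627 of 650 values of 40 other named genes. Among the 85 values of the 5 picked genes, the SRGN difference went as low as 2.43 when a library was left out. The EFEMP1 difference was -3.47 with a pseudocount of 5. When a library was left out, genes that then missed the filter, such as CCN3, DSEL and NCAN in some fits, had no value. The number of genes called was 6351 to 7799 over all alternatives, and that of the other matrix genes 44 (of 92 tested) to 57 (of 95). Upper-quartile scaling changed the scaling factors by -0.039 on the log2 scale (shPAR1 minus shCtrl) and raised the share of higher among called genes from 46.4% to 55.0%.

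The labels do not say whether shPAR1 and shCtrl libraries were made in pairs, so no paired analysis was run. The tests that needed FBN2 or TNC were not run. With 16 to 34 EFEMP1 reads per shPAR1 library and 11 to 38 SRGN reads per shCtrl library, depth limits the precision of both ratios.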

Other observations

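SPP1, which encodes the matricellular protein osteopontin, had too few reads to be tested. It had 78 counts in the 5 shPAR1 libraries together and 1 in the 5 shCtrl libraries, and it was named after its values were seen.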
